A study of Mus musculus with 24 samples.

Results

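The levels of 10 genes that write, erase or accompany methylation of histone H3 at lysine 27 were described in spinal cord microglia of mice with experimental autoimmune encephalomyelitis (EAE), an induced autoimmune model of multiple sclerosis. The genes were taken by name and not by a cut on their values, though earlier results of these data were known. They were the H3K27 demethylases Kdm6a and Kdm6b, the Polycomb repressive complex 2 (PRC2) core genes Ezh1, Ezh2, Eed and Suz12, and Kmt2c, Kmt2d, Ncoa6 and Paxip1 of the MLL3/4 complex. All 10 were found among the 39017 genes of the table, and all 10 passed the filter on low counts that kept 16535 genes for testing. Bulk RNA sequencing had been done on 24 libraries in 4 groups of 6: female wildtype (F WT), female Kdm6a cKO (F cKO), male wildtype (M WT) and male Kdm6a cKO (M cKO). All 24 libraries carried the treatment label EAE and the cell type label microglia, and the series names Tmem119-Cre:RiboTag mice, in which Cre is driven by the microglia gene Tmem119 and a ribosomal protein can be tagged in Cre-expressing cells. The wildtype label does not say which of these alleles the wildtype mice carried, the sources used here do not give the deleted exons or the ages, and no label says whether the libraries are from separate animals. The p-values therefore measure the spread between these libraries, which may be partly technical.

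Trimethylation of H3K27 is a mark of silenced genes. PRC2 places it through a catalytic subunit, either Ezh2, which is typical of dividing cells, or Ezh1, which persists in resting cells, together with Eed, which binds the existing mark, and Suz12, the scaffold. The demethylases Kdm6a (UTX) and Kdm6b (JMJD3) remove the mark, and Kdm6b is inducible by inflammatory stimuli in macrophages. Kdm6a is also a subunit of the MLL3/4 complexes, in which Kmt2c (MLL3) or Kmt2d (MLL4) methylates H3K4 at enhancers and Ncoa6 and Paxip1 (PTIP) are accessory subunits. Kdm6a lies on the X chromosome and escapes X inactivation, and Uty is its Y-linked relative, with weak demethylase activity. Counts were scaled to the library size (CPM), and as CPM per kb of merged exons wherever 2 genes were compared.

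The promoters of the alternative catalytic subunits are shown because these genes ran in opposite directions across the libraries. The windows span 250 bases before to 50 after the start and are RefSeq sequence, build GRCm38.p6, written 5′ to 3′ along each gene's own strand. The capitals mark matches to the E2F-type letters TTTCCCGC or TTTGGCGC and to the CCAAT box letters CCAAT, searched on both strands, so that a CCAAT match on the other strand reads ATTGG.
Ezh2 promoter, chr6:47594981-47595280, strand -: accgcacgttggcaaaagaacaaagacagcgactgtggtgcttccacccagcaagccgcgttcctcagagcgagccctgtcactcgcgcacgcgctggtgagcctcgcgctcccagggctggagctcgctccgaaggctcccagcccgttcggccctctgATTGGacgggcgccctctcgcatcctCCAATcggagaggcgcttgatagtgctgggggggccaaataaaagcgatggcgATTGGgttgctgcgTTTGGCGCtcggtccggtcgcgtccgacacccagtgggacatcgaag
Ezh1 promoter, chr11:101226414-101226713, strand -: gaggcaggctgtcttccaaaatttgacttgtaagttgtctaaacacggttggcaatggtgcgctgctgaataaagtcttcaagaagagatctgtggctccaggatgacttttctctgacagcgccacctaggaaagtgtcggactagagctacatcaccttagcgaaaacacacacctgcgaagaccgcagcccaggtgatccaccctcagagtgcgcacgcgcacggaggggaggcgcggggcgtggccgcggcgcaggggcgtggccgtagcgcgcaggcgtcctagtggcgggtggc
The Ezh2 window held TTTGGCGC at position 4 after the start and 3 CCAAT matches, at positions -90, -64 and -11, none of them overlapping the E2F-type match. The Ezh1 window held neither motif. Among 32851 promoters of the same length, 1.56% held an E2F-type match and 37.4% a CCAAT match. A promoter entry was matched for 9 of the 10 members, all but Kdm6b. Of these 9, Suz12 was the other with an E2F-type match (TTTCCCGC at position -219). A CCAAT match was held by 4 of the 9 (44.4%), which were Ezh2, Ncoa6, Eed and Suz12. A match describes letters in this window and is not a measured binding site.

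The labelled cell type was checked against its markers. The summed level of 12 microglia markers ran from 7110 to 14900 CPM over the libraries, and none of the 12 was at 0 in any group. Oligodendrocyte markers summed to 2360 to 3730 CPM, astrocyte markers to 450 to 784 CPM and neuron markers to 221 to 465 CPM. Transcripts typical of other cells were thus counted in each library, and which cells they came from was not tested. In females Tmem119 (-0.77) and Fcrls (-1.17) fell and Siglech (1.09) rose among the 12 microglia markers, and no microglia marker was called in males (edgeR). Of all tested genes, 4.41% were called lower and 3.32% higher in females. The median log2 change of the 12 in females was 0.32, and at an unadjusted p under 0.05 (edgeR) 6 were higher and 2 lower. Of 9 markers of monocyte-derived cells tested in females 2 rose and 3 fell, with a median log2 change of -1.28. Ly6c2 (-4.46), Ly6i (-4.13) and F13a1 (-2.16) fell, while the summed level of the list, 189 to 642 CPM in F WT and 500 to 924 CPM in F cKO, was mostly that of Fn1, which averaged 319 and 722 CPM in these groups. Summed endothelial markers ran from 48.8 to 102 CPM in F WT and from 107 to 166 CPM in F cKO without overlap. This sum was mostly that of Flt1, which averaged 55.6 and 132 CPM in these groups. Of the 8, Flt1 rose (1.25) and Kdr fell (-1.45), and the median log2 change of the list was -0.57. Klrb1c of the T and NK cell list fell (-2.59, adjusted p = 4.83e-05, edgeR), and Ighm of the B cell list (0.63) and Egr2 of the Schwann cell list (1.12) rose. The 5 Schwann cell markers went mostly the other way, with a median log2 change of -0.92 in females. Of the 8 B cell markers, 2 were tested, and the 7 T and NK cell markers tested had a median of -0.86 in females. Neuron, astrocyte and oligodendrocyte lists held no called gene in either sex (edgeR); at an unadjusted p under 0.05 the oligodendrocyte list held 1 gene in each sex and the others 0. The part of these shifts in the members' values was not tested. Library totals ran from 27110133 to 40554736 counts. Earlier results on these data had put 4 libraries in doubt. The Y-linked Ddx3y had 18 counts in F WT replicate 2 and 40 in F WT replicate 3, M cKO replicate 3 held 16 counts of Xist, and F WT replicate 5 had a quality weight of 0.162. Replicates were numbered in accession order only, and 7471 genes, 45.2% of those tested, differed between replicates 1 to 3 and replicates 4 to 6 at an adjusted p under 0.05 (edgeR). The 7 numbers in the sample titles, whose meaning the labels do not give, were not shared between the genotypes, so an effect of what they stand for and an effect of genotype cannot be told apart.

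Per kb of merged exons and averaged over all 24 libraries, Ezh1 stood above every other member and Kdm6a and Ezh2 stood lowest. Ezh1 averaged 12.2 ± 1.25 CPM per kb (SD, n = 24), and its lowest library, at 9.91 CPM per kb, was above the highest library of Suz12, at 6.22 CPM per kb, and of Ncoa6, at 5.72 CPM per kb. Then came Ncoa6 at 4.23 ± 0.714, Suz12 at 3.42 ± 0.967, Eed at 2.85 ± 0.502, Kmt2d at 2.20 ± 0.390 and Kmt2c at 1.91 ± 0.409 CPM per kb, and each of these overlapped its neighbours in the order. Kdm6b followed at 1.24 ± 0.283 CPM per kb. Paxip1 at 0.600 ± 0.106, Kdm6a at 0.324 ± 0.177 and Ezh2 at 0.254 ± 0.149 CPM per kb closed the order, the last pair overlapping over most of their range. These means include the cKO groups, in which Kdm6a is deleted. In F WT alone Paxip1 averaged 0.567, Kdm6a 0.538 and Ezh2 0.374 CPM per kb, and in M WT 0.649, 0.333 and 0.226. Division by the longest transcript instead exchanged the places of Suz12 and Eed, of Kmt2d and Kmt2c, and of Kdm6a and Ezh2, while Ezh1 stayed first.

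**Figure D1:**
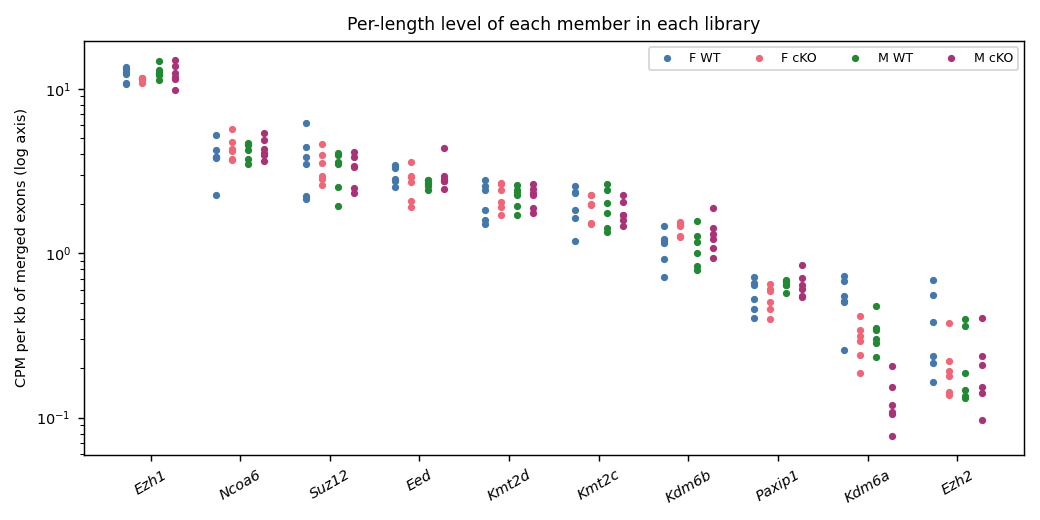
Level of each of the 10 genes in each library, in CPM per kb of merged exons on a log axis, ordered by the mean over 24 libraries; each point is 1 library and colour marks the group. Ezh1 lies between 9.91 and 15.1 CPM per kb, above all others, and the Kdm6a points of M cKO reach down to 0.0772 CPM per kb.

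Kdm6a (ENSMUSG00000037369, chrX:18162575-18279936, plus strand, GRCm38), the gene deleted in the cKO groups, was lower in cKO than in wildtype in both sexes and was not absent in any library. In F WT it ran from 2.17 to 6.09 CPM (median 4.46; mean 4.51 ± 1.37, SD, n = 6), and in F cKO from 1.56 to 3.48 CPM (median 2.56; mean 2.50 ± 0.671). In M WT it ran from 1.97 to 4.03 CPM (median 2.70; mean 2.79 ± 0.705), and in M cKO from 0.648 to 1.73 CPM (median 0.961; mean 1.08 ± 0.382). These levels rest on 17 to 224 counts per library; low counts in the table were mostly even, so a count need not be an independent fragment. All 6 M cKO libraries lay below all 6 M WT libraries, whereas the female groups overlapped because F WT replicate 5, at 2.17 CPM, lay within the F cKO range. The groups therefore ordered as F WT, M WT, F cKO and M cKO, and the middle pair could not be separated (exact permutation test of CPM, two-sided p = 0.496, n = 6 each).

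In females Kdm6a fell by 0.85 on the log2 scale (SE 0.25, adjusted p = 0.0313, edgeR quasi-likelihood test with Benjamini-Hochberg adjustment), to 55.4% of wildtype, and the exact permutation test of its CPM gave p = 0.0108. In males it fell by 1.36 (SE 0.26, adjusted p = 0.016, edgeR), to 38.6% of wildtype, with an exact permutation p of 0.00216, the smallest that 6 against 6 can give. The difference between these changes, female minus male, was 0.52 (95% interval -0.21 to 1.24, adjusted p = 0.872, edgeR) and did not pass. Within replicates 1 to 3 the female change was -1.01 (adjusted p = 0.0914, edgeR) and within replicates 4 to 6 it was -0.62 (adjusted p = 0.375, edgeR); in males the values were -1.38 and -1.35 (adjusted p = 0.156 and 0.990, edgeR), so the direction held in each set and no call did. The female call was also lost when any of F WT replicate 2 (-0.78), F WT replicate 3 (-0.74) or F cKO replicates 2 (-0.79), 3 (-0.86), 5 (-0.84) or 6 (-0.74) was left out, and without the 4 doubted libraries (-0.81, adjusted p = 0.0919, edgeR). With the title number as a random effect (limma) neither call passed, at -0.79 in females (adjusted p = 0.0993) and -1.46 in males (adjusted p = 0.328). Leaving out M WT replicate 2 (-1.23) or M cKO replicate 2 (-1.31) or 6 (-1.32) ended the male call. In bulk RNA, fewer cells of a type and less RNA per cell cannot be told apart, and the share of the remaining Kdm6a reads that came from other cells or from undeleted exons was not tested.

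Kdm6a was also set against the sex of the mice. Between the wildtype groups, F WT stood 0.69 above M WT on the log2 scale (95% interval 0.19 to 1.19, exact permutation p = 0.0325), which did not pass across all genes (adjusted p = 1, edgeR); with the title number, which the sexes of a genotype share in part, as a block the difference was 0.41 (adjusted p = 0.434, edgeR). Between the cKO groups, F cKO stood 1.21 above M cKO (SE 0.26, adjusted p = 0.00928, edgeR), with overlap of the groups and an exact permutation p of 0.00433. With the title number as a block it was 1.18 (adjusted p = 0.0082, edgeR), and within replicates 1 to 3 and 4 to 6 alone it was 1.16 and 1.27, neither passing (adjusted p = 0.110 and 0.260, edgeR). That made Kdm6a 1 of 10 members called between the sexes in cKO, where 1.98% of tested genes were called and 0.883% were called higher in females. In wildtype, 0 of 10 members were called by edgeR, where 0.0363% of genes were, and 1 member, Kdm6a, had an unadjusted p under 0.05. Uty was measured in males at 1.11 ± 0.693 CPM in M WT and 0.969 ± 0.564 CPM in M cKO (SD, n = 6 each). The male groups overlapped, and the log2 change of Uty was -0.19 (95% interval -1.31 to 0.94, adjusted p = 1, edgeR). Uty had 0 counts in all 6 F cKO libraries, which allows up to 0.0902 to 0.105 CPM per library (counting error only, and too low a limit if counts are not independent fragments), and 1, 1 and 8 counts in F WT replicates 1, 2 and 3. Per kb, the sum of Kdm6a and Uty was 0.543 ± 0.170 in F WT, 0.298 ± 0.0801 in F cKO, 0.446 ± 0.131 in M WT and 0.228 ± 0.0819 in M cKO, so the wildtype groups overlapped.

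**Figure D2:**
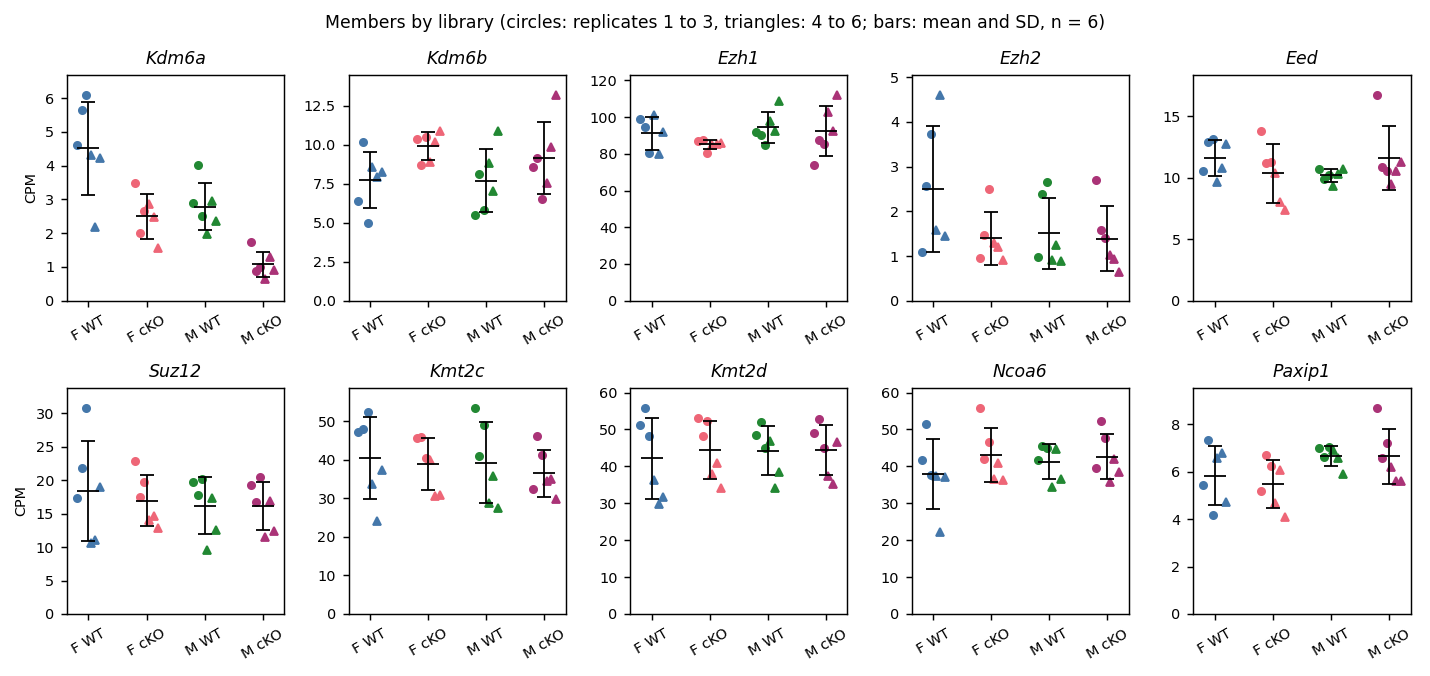
CPM of each of the 10 genes in each library by group; circles are replicates 1 to 3, triangles replicates 4 to 6, and bars the mean and SD of 6 libraries. Kdm6a in M cKO stays at or below 1.73 CPM, under all M WT libraries, while the groups of each other gene overlap.

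Kdm6b (chr11:69398508-69413675, minus strand), the other H3K27 demethylase, ran from 5.0 to 10.2 CPM in F WT (median 8.12) and from 8.73 to 10.9 CPM in F cKO (median 10.3). In M WT it ran from 5.50 to 10.9 CPM (median 7.58) and in M cKO from 6.54 to 13.2 CPM (median 8.88). The F cKO libraries clustered near the top of the F WT range, and the groups overlapped in both sexes. Its log2 change was 0.36 in females (95% interval -0.01 to 0.73, adjusted p = 0.287, edgeR; exact permutation p = 0.013) and 0.25 in males (95% interval -0.13 to 0.62, adjusted p = 1, edgeR). Neither passed across all genes, and the intervals reach up to 1.66-fold in females and 1.54-fold in males. Genes on the opposite strand share 4.11% of the exon bases of Kdm6b (Kdm6bos), 6.82% of Eed (E230029C05Rik), 3.60% of Suz12 (Gm26563), 2.61% of Ezh2 (Gm26625) and 1.35% of Kmt2c (Gm42585), and the sources used here do not say whether the counting used strand.

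The ratio of the demethylases was computed in each library. Per kb, the ratio of Kdm6b to Kdm6a ran from 0.990 to 4.43 in F WT (mean 2.34 ± 1.16, SD, n = 6) and from 3.60 to 8.41 in F cKO (mean 5.13 ± 1.74). It ran from 2.30 to 5.54 in M WT (mean 3.55 ± 1.5) and from 5.97 to 17.3 in M cKO (mean 11.2 ± 4.25). Male cKO libraries all lay above male wildtype ones, whereas the female groups overlapped. The share of Kdm6a in the per-kb sum of both demethylases was 32.8% ± 10.5 in F WT, 17.2% ± 4.0 in F cKO, 23.8% ± 6.66 in M WT and 9.15% ± 3.32 in M cKO. The sum itself averaged 1.65 ± 0.278, 1.73 ± 0.147, 1.44 ± 0.286 and 1.44 ± 0.334 CPM per kb in the same order, and the groups overlapped. These ratios are a description, since the deletion lowers one term of each.

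Among all 10 members, Kdm6a was the only one called by genotype. In females 1 of 10 was called, lower, where 7.74% of all tested genes were called and 4.41% were called lower; in males 1 of 10 was called, lower, where 0.187% were called and 0.115% were called lower. Averaged over the sexes Kdm6a fell by 1.11 (adjusted p = 0.000136, edgeR), the 1 call of 10, against 6.54% of all tested genes. For the difference between the sexes in the genotype change, edgeR called 0 of 10 members, none with an unadjusted p under 0.05, against 0.411% of all tested genes. The median log2 change of the 10 members was -0.09 in females and -0.00 in males, beside -0.02 and 0.01 over all tested genes. Within a sex, the count of called members was 0 wherever the Kdm6a call was lost. Examples were females without the 4 doubted libraries, and each sex with the title number as a random effect or within either set of replicates. Averaged over the sexes, the count stayed at 1 with the random effect, within either set and without the 4 doubted libraries. The averaged count was also 1 with any single library left out.

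**Figure D3:**
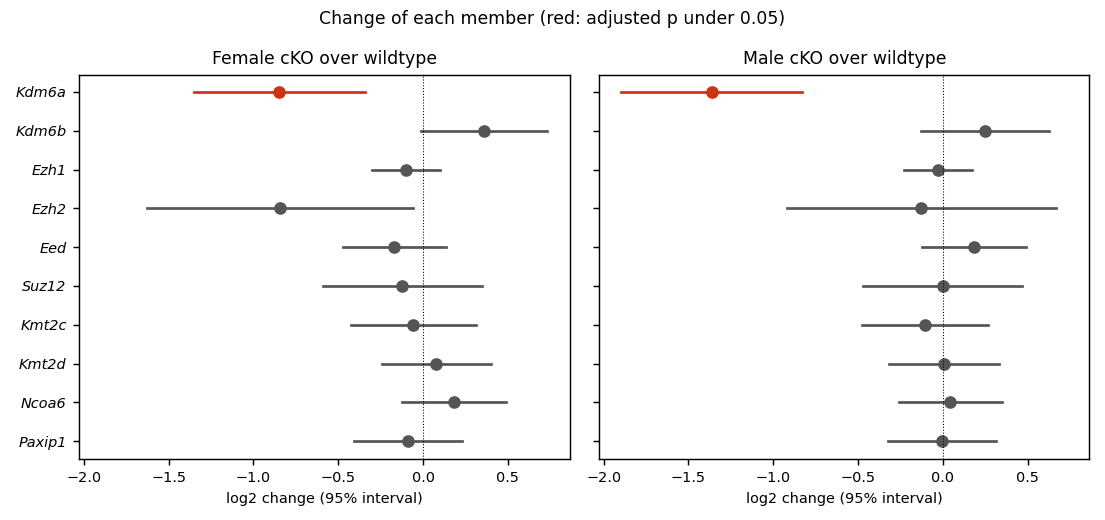
Log2 change of each gene, cKO over wildtype, in females (left) and males (right); points are edgeR estimates, lines 95% intervals, and red marks an adjusted p under 0.05. Kdm6a alone is red in both panels, at -0.85 and -1.36, and Ezh2 has the widest interval in both.

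The PRC2 catalytic subunits behaved differently from each other. Ezh1 (chr11:101191115-101226463, minus strand) ran from 79.9 to 101 CPM in F WT (median 93.4), 80.6 to 87.3 in F cKO (median 85.6), 84.9 to 109 in M WT (median 92.3) and 73.7 to 112 in M cKO (median 90.1). The groups overlapped, and its log2 changes of -0.10 in females (95% interval -0.30 to 0.10) and -0.03 in males (-0.23 to 0.17) did not pass. Ezh2 (chr6:47530139-47595341, minus strand) ran from 1.1 to 4.60 CPM in F WT (median 2.07), 0.919 to 2.51 in F cKO (median 1.24), 0.880 to 2.65 in M WT (median 1.11) and 0.650 to 2.70 in M cKO (median 1.22). These values rest on 17 to 172 counts per library, and the spread within each group was wide. The highest libraries were F WT replicates 5 and 3, at 4.60 and 3.72 CPM. The female log2 change of Ezh2 was -0.84 (95% interval -1.63 to -0.06, adjusted p = 0.216, edgeR, and exact permutation p = 0.0909), and it was 0.02 without the 4 doubted libraries. Those of F WT, replicates 2, 3 and 5, held the highest Ezh2 of that group, at 2.56, 3.72 and 4.60 CPM. With a single library left out, the female change ran from -1.10 to -0.58. In males the log2 change of Ezh2 was -0.13 (95% interval -0.92 to 0.67, adjusted p = 1, edgeR). Per kb, Ezh1 exceeded Ezh2 in every library, by 15.6 to 155 times (mean 63.2 ± 33.0, SD, n = 24), and division by the longest transcript gave a mean of 46.7.

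Across the libraries Ezh2 was high where genes of dividing cells were high. The proliferation score, the mean log2 CPM of 29 proliferation genes such as Mki67, Ccna2 and Aurkb, ran from 0.976 to 4.55, with F WT replicates 5 and 3 at 4.55 and 3.43. Over 24 libraries, the log2 CPM of Ezh2 correlated with the score at Pearson r = 0.808 (permutation p = 1e-05, the smallest that 100000 resamples can give; adjusted over 10 members 1e-04) and Spearman rho = 0.730 (permutation p = 0.00011, adjusted p = 0.0011). Without these farthest libraries r was 0.664. Within groups r was 0.833 in F WT, 0.164 in F cKO, 0.757 in M WT and 0.934 in M cKO, and within replicates 1 to 3 and 4 to 6 it was 0.725 and 0.864. The relation thus held within each set and was weak in F cKO, where the score ran only from 1.19 to 1.90. In females 8 of the 29 proliferation genes fell, where 4.41% of all tested genes were called lower, and the median log2 change of the list was -1.58. In males 0 of 29 were called by edgeR, with 0 at an unadjusted p under 0.05 (median 0.00). Without F WT replicate 5 alone, or without the 4 doubted libraries, no proliferation gene was called in females, and the median was -0.96 and -0.36. With a term for replicates 1 to 3 against 4 to 6, 14 of the 29 were called lower in females (median -1.595). Whether the Ezh2 value in females follows from the number of dividing cells in these libraries was not tested.

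Ezh1 ran the other way. Its correlation with the proliferation score was r = -0.579 (permutation p = 0.00311, adjusted p = 0.0155), while rho, at -0.506, did not pass after adjustment (permutation p = 0.0123, adjusted p = 0.0616), and r was -0.505 without the farthest libraries. Within groups r was -0.939 in F WT, 0.0899 in F cKO, -0.685 in M WT and -0.814 in M cKO, so the relation was not seen in F cKO, and within replicates 1 to 3 and 4 to 6 it was -0.500 and -0.568. With group means removed, Ezh1 and Ezh2 correlated at r = -0.824 (permutation p = 1e-05, adjusted over 45 pairs of members 0.0003) and rho = -0.796 (permutation p = 3e-05, adjusted p = 0.00135). Without the libraries farthest from the median of Ezh1, 2 in number, r was -0.781. Within replicates 1 to 3 and 4 to 6 it was -0.795 and -0.768, and within the groups it ran from -0.950 in M cKO to -0.774 in M WT. Of the 45 pairs, 17 passed on r and 14 passed on both r and rho. Ezh1 with Ezh2 was the 1 pair of the 17 whose r kept its sign and exceeded 0.5 in size within both sets of replicates. Some of the 17 kept their sign and came near that limit, such as Kdm6a with Eed (0.780 and 0.481) and Eed with Suz12 (0.471 and 0.530). Others changed sign between the sets, such as Kdm6a with Kmt2c (-0.655 and 0.703). Correlations of the other 8 members with the score did not pass the adjustment. Libraries share depth and composition effects, and the part of these in the relations was not tested.

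**Figure D4:**
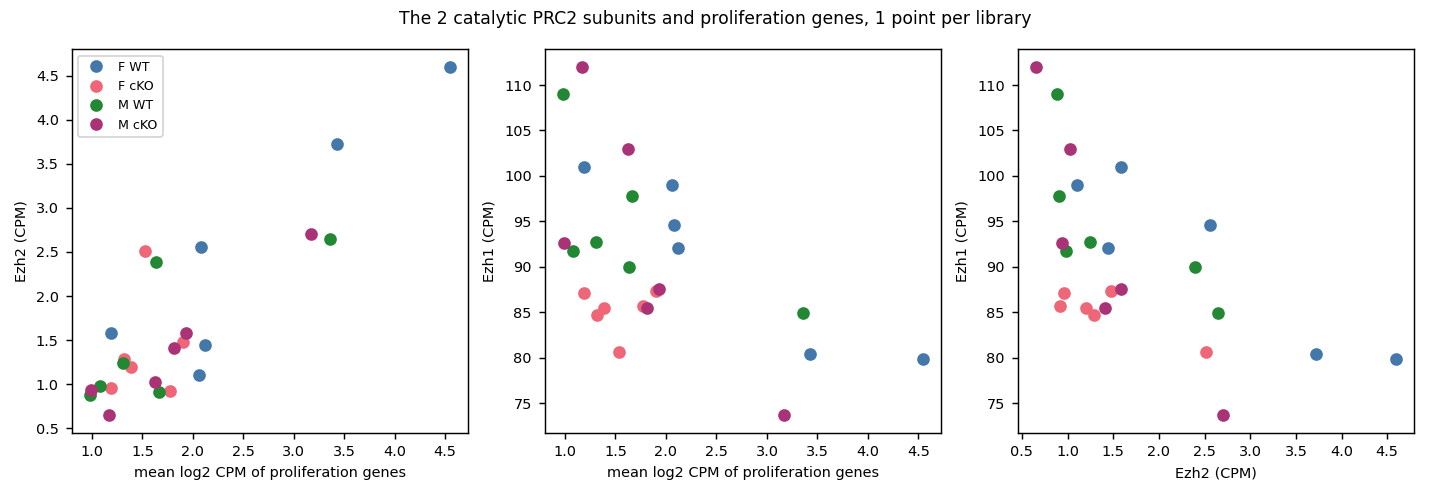
Ezh2 and Ezh1 (CPM) against the mean log2 CPM of 29 proliferation genes, and Ezh1 against Ezh2, with 1 point per library coloured by group. F WT replicate 5 lies at the far right with the highest Ezh2 (4.60 CPM) and one of the lowest Ezh1 levels (79.9 CPM).

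By the same measure over all genes, the 5 genes whose log2 CPM was most like that of Ezh2 after removal of group means were Hmgb2 (r = 0.828), Ccna2 (0.824), Exosc3 (0.824), Aurkb (0.823) and Cbx5 (0.818), among 12002 genes and over 24 libraries. Ccna2, a cyclin, and Aurkb, a mitotic kinase, belong to the proliferation list. Those most like Kdm6a were Papolg (r = 0.867), Zbtb10 (0.839), Chm (0.830), Aftph (0.825) and Pex13 (0.816). These correlations were picked as the highest and are a description only.

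No change passed for the remaining PRC2 core genes. Eed (chr7:89954654-89980983) ran from 9.67 to 13.1 CPM in F WT (median 11.8), 7.35 to 13.8 in F cKO (median 10.8), 9.33 to 10.7 in M WT (median 10.2) and 9.45 to 16.7 in M cKO (median 10.7). Its log2 changes, with overlapping groups, were -0.17 in females (95% interval -0.47 to 0.14) and 0.18 in males (-0.12 to 0.49). Suz12 (chr11:79993106-80034123) ran from 10.6 to 30.7 CPM in F WT (median 18.1), 12.9 to 22.8 in F cKO (median 16.0), 9.55 to 20.2 in M WT (median 17.6) and 11.5 to 20.4 in M cKO (median 16.8). Its log2 changes were -0.12 in females (95% interval -0.59 to 0.35) and -0.00 in males (-0.47 to 0.47). None passed, and the intervals of Suz12 leave room for a change of up to 1.38-fold upward in males.

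The MLL3/4 genes showed no call either. Kmt2c (chr5:25271798-25498783) averaged 40.4 ± 10.6, 38.9 ± 6.80, 39.3 ± 10.5 and 36.5 ± 6.07 CPM in F WT, F cKO, M WT and M cKO (SD, n = 6), and its log2 changes were -0.06 in females (95% interval -0.43 to 0.31) and -0.10 in males (-0.48 to 0.27). Kmt2d (chr15:98831669-98871204) averaged 42.1 ± 10.9, 44.5 ± 7.91, 44.2 ± 6.66 and 44.4 ± 6.83 CPM, with changes of 0.08 (95% interval -0.24 to 0.40) and 0.01 (-0.32 to 0.33). The groups overlapped throughout for both methyltransferases. Ncoa6 (chr2:155390656-155473894) averaged 37.9 ± 9.43, 43.0 ± 7.33, 41.3 ± 4.77 and 42.6 ± 6.17 CPM, with changes of 0.18 (95% interval -0.12 to 0.49) and 0.04 (-0.26 to 0.35). Paxip1 (chr5:27740080-27791691) averaged 5.83 ± 1.25, 5.48 ± 1.01, 6.67 ± 0.426 and 6.65 ± 1.16 CPM, with changes of -0.09 (95% interval -0.41 to 0.23) and -0.00 (-0.32 to 0.32). The lowest adjusted p among the 9 members other than Kdm6a was 0.216 in females (edgeR) and 1 in males. Per kb, Kmt2d and Kmt2c were near equal, at a ratio of 1.18 ± 0.218 (SD, n = 24), and the ratio was 0.872 when divided by the longest transcript, so which of them was higher depends on the length used.

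More of these genes differed along the accession order of the replicates than by genotype. The same held over all tested genes, of which 7.74% were called by genotype in females and 0.187% in males. Between replicates 4 to 6 and 1 to 3, 7 of the 10 members were called by edgeR, all lower in 4 to 6. Of the 16535 tested genes, 45.2% were called in either direction and 3678 were called lower. Suz12 fell by 0.58 (adjusted p = 0.000248), Kmt2c by 0.48 (8.56e-05), Kmt2d by 0.42 (5.34e-05) and Ncoa6 by 0.31 (0.00403), all on the log2 scale. Ezh2 fell by 0.63 (adjusted p = 0.0408), Kdm6a by 0.40 (0.0444) and Eed by 0.24 (0.037). Kmt2d, with the longest transcript, ran from 44.9 to 55.7 CPM in replicates 1 to 3 and from 29.9 to 46.9 CPM in 4 to 6, with 12 libraries each. Ezh1 (0.12), Kdm6b (0.25) and Paxip1 (-0.16) did not pass. Over all tested genes the median difference was 0.22 for genes whose longest transcript is under 1 kb and -0.35 for those of 8 kb or more, of which 450 of 833 were called lower. For those of 4 to 8 kb, where most members lie, the median was -0.18 and 1676 of 4662 were called lower. Each group holds 3 libraries of either set, so the sets are balanced over genotype and sex, and what the accession order stands for is not given in the labels. The sets are not balanced over the title numbers. M WT replicates 1 to 3 all carry 1698 and 4 to 6 all carry 1714, and F cKO replicates 1 to 3 all carry 1675 and 4 to 6 carry 1695 or 1726. Within these groups, set and title number cannot be told apart.

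**Figure D5:**
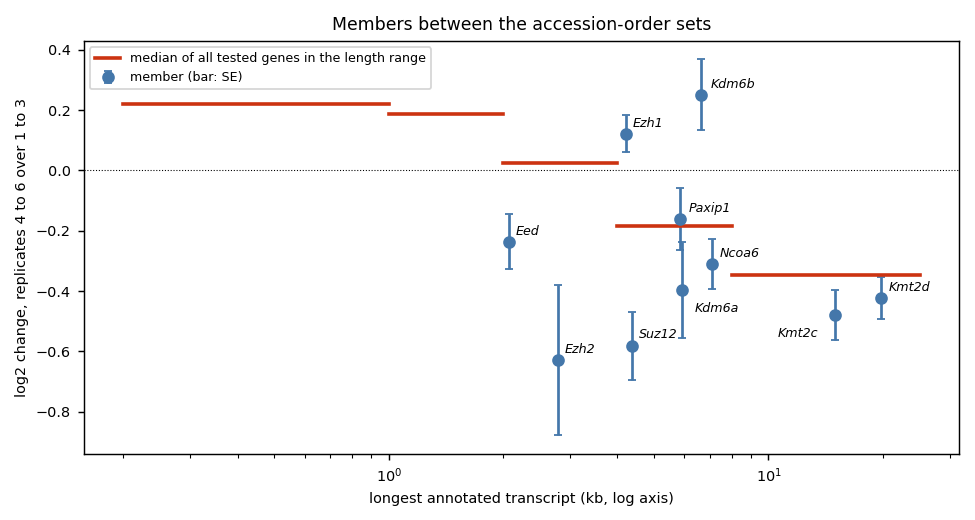
Log2 difference of each gene between replicates 4 to 6 and 1 to 3 (points, with SE) against its longest annotated transcript in kb on a log axis; red lines are the medians of all tested genes in 5 length ranges, from 0.22 at under 1 kb to -0.35 at 8 kb or more. Kmt2c and Kmt2d lie near the median of the longest genes, and Suz12 and Ezh2 lie farthest below the medians of their ranges.

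Genes that act with these members were counted from lists. Of 10 PRC2 accessory genes tested in females, 1 rose and 1 fell, against 3.32% and 4.41% of all tested genes called in these directions. Epop, which links PRC2 to elongin BC, rose by 0.64 (adjusted p = 0.0311, edgeR), from 9.39 ± 3.01 to 14.7 ± 1.73 CPM (SD, n = 6). It also passed without the 4 doubted libraries (0.89, adjusted p = 0.00355, edgeR). Phf19, a Polycomb-like protein that guides PRC2 to its targets, fell by 2.12 (adjusted p = 0.0483, edgeR), but 1 library carried it: F WT replicate 5 stood at 12.5 CPM, against 0.638 to 3.18 in the other F WT libraries. Without that library the change was -1.02 (adjusted p = 0.403, edgeR). Among 22 PRC1 genes 1 rose, Bcorl1, a corepressor of a variant PRC1, by 0.77 (adjusted p = 0.00528, edgeR), and it did not pass without the 4 doubted libraries (0.66, adjusted p = 0.0543). Among 16 other JmjC demethylases 2 fell: Kdm4a, an H3K9 and H3K36 demethylase, by 0.34 (adjusted p = 0.0457), and Kdm7a, which acts on H3K9 and H3K27, by 0.56 (adjusted p = 0.0454). Without the 4 doubted libraries neither passed (adjusted p = 0.0866 and 0.314, edgeR), and Kdm4a also did not pass without F WT replicate 5 alone (-0.34, adjusted p = 0.0569). Of 16 SWI/SNF genes 1 rose, Arid1b, a subunit of the BAF complex, by 0.45 (adjusted p = 0.0136), also without the 4 libraries (0.38, adjusted p = 0.0357).

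The other lists held no called gene in females by edgeR. These were 14 other COMPASS subunits, with 0 at an unadjusted p under 0.05, 6 H3K4 demethylases, with 1, 20 genes of H3K27 acetylation and its readers and erasers, with 1, 7 genes of the H2AK119 deubiquitinase, with 0, and 29 Hox genes, classic PRC2 targets, with 0. The median log2 changes of these 5 lists in females were -0.03, 0.05, -0.04, -0.04 and 0.07. For the PRC2 accessory, PRC1, JmjC and SWI/SNF lists the medians were -0.00, 0.10, -0.03 and -0.04, all near the -0.02 of all tested genes. In males none of the genes of these 9 lists passed (edgeR), and the medians ran from -0.15 for Hox genes to 0.03 for SWI/SNF genes. At an unadjusted p under 0.05 there was 1 gene in males in each of the PRC2 accessory, JmjC, deubiquitinase and Hox lists and 0 in the other lists.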

How the data were processed

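RNA of 24 libraries had been extracted and sequenced after mRNA enrichment with a stranded kit, per the labels' protocols. The authors deposited 1 table of raw counts per gene, with no normalization. The submitters' processing notes name bcl2fastq 2.17, FastQC, Trimmomatic and the build mm10; the sources used here name no aligner or counter. Counts from 1 to 10 were even in 71.8% of cases, against 51.7% among high counts, the cause of which was not tested. Totals ran from 27110133 to 40554736 counts, and replicate pairs differed by far more than sampling noise (chi-square per gene 14.5 to 367).

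Of 39017 gene IDs, 37607 (96.4%) matched GENCODE vM21 (GRCm38), from which lengths and coordinates came. Counts were tested with edgeR 4.0.16 (R 4.3.3): filterByExpr (16535 genes kept), TMM scaling (factors 0.873 to 1.17), the quasi-likelihood test with 1 mean per group over all 4 groups, and Benjamini-Hochberg adjustment over all genes tested, with a threshold of 0.05. Intervals are 95%. Single genes were also tested by two-sided exact permutation of CPM. Correlations used log2 CPM (prior count 2) and 100000 permutations. The procedure was tested on simulated counts, with 50 genes changed at each fold. It recovered 36% of the 1.5-fold and 82% of the 2-fold changes in the female comparison, and 32% and 78% in the male comparison. Alternatives were DESeq2 1.42.0, its scaling, other filters, voom quality weights and random effects (limma 3.58.1), replicate sets, and libraries left out; a newer dispersion method and the title number as a block between the sexes were added after seeing the data.

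The members and lists were chosen with earlier results of these data known. The genes named are the 10 members and Uty, called genes of each pathway list (up to 6 a list by smallest p), the 5 genes most like Kdm6a and Ezh2, and sex genes as checks of the labels; marker genes were named after their values were seen.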

Additional observations from a re-analysis of the deposited data

Results flagged for a closer look

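In 40 groups of 6 libraries, 10 genes in 4 groups each, the highest or lowest library was set against the others by Dixon's test at its 95% critical value, which chance passes in about 1 of 20 groups. It marked 2. Ezh2 stood at 2.51 CPM in F cKO replicate 3, against 0.919 to 1.48 CPM in the other F cKO libraries. The proliferation score of that library, 1.53, lay within the range of its group. Eed stood at 16.7 CPM in M cKO replicate 1, against 9.45 to 11.3 CPM in the other M cKO libraries. That library also held the highest Ezh2 of its group, at 2.70 CPM, and the highest proliferation score of its group, at 3.17; their part in the Eed value was not tested.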

How the results depend on the processing

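Kdm6a was lower in cKO in both sexes under every alternative run. Its female change did not pass with only the 2 groups compared (-0.84), with the title number as a random effect (-0.79), in replicates 1 to 3 (-1.01) or 4 to 6 (-0.62) alone, or without the 4 doubted libraries (-0.81), where 0 members were called; left-out libraries gave -0.99 to -0.74 and 0 to 1 members. Its male change did not pass with the random effect (-1.46) or in either set alone (-1.38 and -1.35), where 0 members were called; left-out libraries gave -1.56 to -1.23 and 0 to 1 members. The female count of called genes, 1279, was 803 with the random effect, 458 and 658 in the sets alone, and 980 to 1619 with a library left out. The male count, 31, was 88 with DESeq2, 90 with quality weights, 48 without the 4 doubted libraries, 2 with the random effect, 0 in each set alone, and 15 to 30 with a library left out. The r of Ezh2 with the proliferation score was 0.164 in F cKO alone.

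The other 9 members were called in none of 432 values (lowest adjusted p 0.094, Ezh2 in females with a term for the replicate sets, edgeR). Of these values 49 changed sign, all of them at most 0.13 in size. With replicates 4 to 6 alone these were Ezh1 (males 0.031), Suz12 (females 0.042, males 0.046), Kmt2c (females 0.10, males 0.10) and Kmt2d (males -0.015); with 1 to 3 alone, Kmt2d (females -0.013) and Paxip1 (females 0.09, males 0.13). Without the doubted libraries these were Ezh2 (females 0.018) and Suz12 (females 0.11). Quality weights gave Kmt2d (males -0.014) and Paxip1 (females 0.054), and the random effect gave Kmt2d (males -0.088) and Ncoa6 (males -0.067). A filter of 1 CPM in 6 libraries gave Suz12 (males 0.0033) and Paxip1 (males 0.0014), the set term Suz12 (males 0.0083) and the newer dispersion method Paxip1 (males 2.0e-05). With a library left out the ranges were, in males, Ezh1 -0.087 to 0.023, Ezh2 -0.44 to 0.11, Suz12 -0.11 to 0.084, Kmt2c -0.19 to 0.0061, Kmt2d -0.058 to 0.065, Ncoa6 -0.022 to 0.093 and Paxip1 -0.097 to 0.049, and in females, Suz12 -0.24 to 0.084, Kmt2c -0.17 to 0.031 and Kmt2d -0.0042 to 0.17. The causes were not tested. No paired analysis was possible for the genotype comparisons, because the genotypes share no title number. Between the sexes of cKO, which share title numbers, the Kdm6a difference passed in all alternatives, with the title number as a block included (1.18), except replicates 1 to 3 (1.16) and 4 to 6 (1.27) alone. Kdm6a and Ezh2 rest on as few as 17 counts in a library, which limits their precision.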
